A study of Mus musculus with 6 samples.

Results

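The genes described here are 9 transcription factors that mark or direct subtypes of retinal bipolar cells, *Neurod4*, *Prdm8*, *Bhlhe23*, *Sebox*, *Vsx1*, *Irx5*, *Irx6*, *Lhx3* and *Lhx4*, together with the cone bipolar marker *Igfn1*. They were found by symbol among the 11339 genes of an RNA-seq table, which had passed the authors' filter on low counts, and 10 of 10 were present. These 10 genes were chosen by their measured values in the comparison of *Mll1KO* and WT retinas, with *Igfn1* as a contrasting increase, so that their own differences between the genotypes are given as a description without a test.

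The retinas of 3 *Mll1KO* and 3 WT samples at postnatal day 14 (P14), with 2 retinas pooled per sample, were profiled by RNA-seq to ask how loss of the histone methyltransferase MLL1 alters gene expression in retinal cell types. *Mll1KO* mice are MLL1 fl/fl and carry Chx10-Cre, a Cre recombinase transgene active in the progenitors of the retina. The controls are wild type mice, for which the labels give neither floxed alleles nor Cre, so that the transgene and the loss of *Mll1* cannot be told apart. The strain is C57Bl6/J in both groups. In whole retina, fewer cells of a type and less RNA per cell cannot be told apart.

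Bipolar cells carry signals from photoreceptors to the inner retina. Rod bipolar cells are of the ON kind, which depolarizes at light onset through a metabotropic glutamate receptor, while cone bipolar cells include ON types and OFF types, the latter using ionotropic glutamate receptors. Early factors set the bipolar fate in late progenitor cells, and homeobox and basic helix-loop-helix factors then separate the subtypes.

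Values are RPKM, which are reads scaled to gene length and library total. Whole reads could be recovered from RPKM, and they gave library totals of 23836033 for WT a, 19777205 for WT b, 19323512 for WT c, 23348923 for *Mll1KO* a, 19855963 for *Mll1KO* b and 17961097 for *Mll1KO* c. Fold changes are *Mll1KO* minus WT on the scale of log2(RPKM + 1), which understates the change of weakly expressed genes. *Kmt2a*, the current symbol of *Mll1*, had an RPKM of 36.1, 36.9 and 34.6 in WT samples and of 22.9, 20.4 and 22.3 in *Mll1KO* samples. All 3 *Mll1KO* values were below all 3 WT values, as the labels have it, although RPKM also counts the exons outside the floxed part. The log2 fold change was -0.69 (standard error 0.05), and limma, a linear model fitted across all genes with Benjamini-Hochberg adjustment, gave an adjusted p of 2.77e-05. By that test, at an adjusted p of 0.05, 2643 of 11339 genes were changed (23.3%), of which 1644 were lower (14.5% of all genes) and 999 higher (8.81% of all genes) in *Mll1KO*, a balance that turned with scaling. Median-ratio factors gave 1126 lower and 1276 higher genes, and upper-quartile factors 1190 and 1250. Rod scaling, in which the RPKM of 10 rod genes add up to the same total in each library, gave 9500 lower genes (83.8% of all genes) and 210 higher, so that counts under it are read against that share.

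The 5 factors of cone bipolar cells were all lower in *Mll1KO*. *Lhx4*, a LIM homeobox gene of cone bipolar cells, had an RPKM of 5.95, 6.60 and 6.11 in WT samples and of 3.29, 3.37 and 3.73 in *Mll1KO* samples. *Vsx1*, a paired-type homeobox gene needed for the maturation of some ON and OFF cone bipolar types, had 7.80, 8.08 and 8.67 RPKM in WT and 4.32, 4.84 and 5.04 RPKM in *Mll1KO*. For both genes the highest *Mll1KO* sample was well below the lowest WT sample. The mean of *Lhx4* went from 6.22 ± 0.34 to 3.46 ± 0.233 RPKM (SD, n = 3), which is 55.7% of WT, with a log2 fold change of -0.69 (standard error 0.061). The mean of *Vsx1* was 8.18 ± 0.442 RPKM in WT and 4.73 ± 0.372 RPKM in *Mll1KO* (SD, n = 3), or 57.8% of WT, with a log2 fold change of -0.68 (standard error 0.064).

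*Lhx3*, the LIM homeobox gene most closely related to *Lhx4*, had an RPKM of 5.47, 5.76 and 5.81 in WT samples and of 3.53, 3.23 and 3.71 in *Mll1KO* samples. *Irx6*, an Iroquois homeobox gene of OFF cone bipolar cells, had 7.12, 6.86 and 7.42 RPKM in WT and 4.84, 3.72 and 4.68 RPKM in *Mll1KO*. *Irx5*, its neighbour in the Iroquois cluster and also a factor of OFF cone bipolar cells, had 4.36, 3.89 and 3.73 RPKM in WT and 2.57, 2.96 and 2.87 RPKM in *Mll1KO*. In none of these 3 genes did the groups overlap, and for *Irx6* the *Mll1KO* sample b was the lowest of its group. *Lhx3* stood at 61.4% of WT (log2 fold change -0.57, standard error 0.059) and *Irx6* at 61.9% (-0.59, standard error 0.08). *Irx5*, at 70.1% of WT (-0.39, standard error 0.067), had the fewest reads of the members, between 124 and 250 per library. Over these 5 factors the median log2 fold change was -0.59. A pseudocount of 5 in place of 1 moved *Lhx4* to -0.41, *Vsx1* to -0.44, *Lhx3* to -0.33, *Irx6* to -0.37 and *Irx5* to -0.21. Other alternatives moved these genes the other way. In the same order, rod scaling gave -0.95, -0.95, -0.83, -0.86 and -0.64. A pseudocount of 0.1 gave -0.83, -0.78, -0.69, -0.69 and -0.50, and limma-voom on the recovered reads -0.85, -0.80, -0.70, -0.70 and -0.52.

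The factors with a wider role in bipolar cells, *Neurod4* and *Prdm8*, were the most abundant members and were lower too. *Neurod4*, a basic helix-loop-helix factor that promotes bipolar cell genesis, had an RPKM of 48.6, 45.9 and 46.0 in WT samples and of 29.98, 32.4 and 35.6 in *Mll1KO* samples. *Prdm8*, a PR domain factor needed for the maturation of rod bipolar cells and of some OFF cone bipolar cells, had 48.1, 44.2 and 47.7 RPKM in WT and 32.6, 31.6 and 32.6 RPKM in *Mll1KO*. For both genes the groups lay well apart, and the *Mll1KO* samples were spread more widely for *Neurod4* than for *Prdm8*. *Neurod4* was at 69.8% of WT with a log2 fold change of -0.51 (standard error 0.059), from between 2138 and 3873 reads per library. *Prdm8* was at 69.1% of WT with a log2 fold change of -0.52 (standard error 0.044), from between 1824 and 3573 reads per library. Under rod scaling the log2 fold changes were -0.82 for *Neurod4* and -0.83 for *Prdm8*.

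The remaining factors did not share this difference. *Bhlhe23*, a basic helix-loop-helix factor needed for the maturation and survival of rod bipolar cells, had an RPKM of 10.95, 11.4 and 11.9 in WT samples and of 12.0, 12.1 and 12.6 in *Mll1KO* samples. *Sebox*, a homeobox gene given no bipolar class here, had 22.0, 21.2 and 21.4 RPKM in WT and 22.3, 22.2 and 21.9 RPKM in *Mll1KO*. The *Bhlhe23* groups lay next to each other, the lowest *Mll1KO* sample just above the highest WT sample, and the *Sebox* groups overlapped. *Bhlhe23* was at 106.8% of WT with a log2 fold change of 0.09 (standard error 0.048), a sign that turned to -0.20 under rod scaling. *Sebox* was at 102.9% of WT with a log2 fold change of 0.04 (standard error 0.039), which that scaling turned to -0.26 and median-ratio or upper-quartile factors moved to 0.07.

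*Igfn1*, which encodes a protein with immunoglobulin and fibronectin domains and marks a type of cone bipolar cell, differed in the other direction. Its RPKM was 8.09, 8.35 and 8.06 in WT samples and 19.5, 20.0 and 16.8 in *Mll1KO* samples. Every *Mll1KO* sample was far above the highest WT sample, and *Mll1KO* sample c was the lowest of its group. The mean was 8.17 ± 0.158 RPKM in WT and 18.8 ± 1.69 RPKM in *Mll1KO* (SD, n = 3), a ratio of 2.30 (log2 fold change 1.10, standard error 0.063). Between 1401 and 4086 reads per library lay on *Igfn1*.

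**Figure D1:**
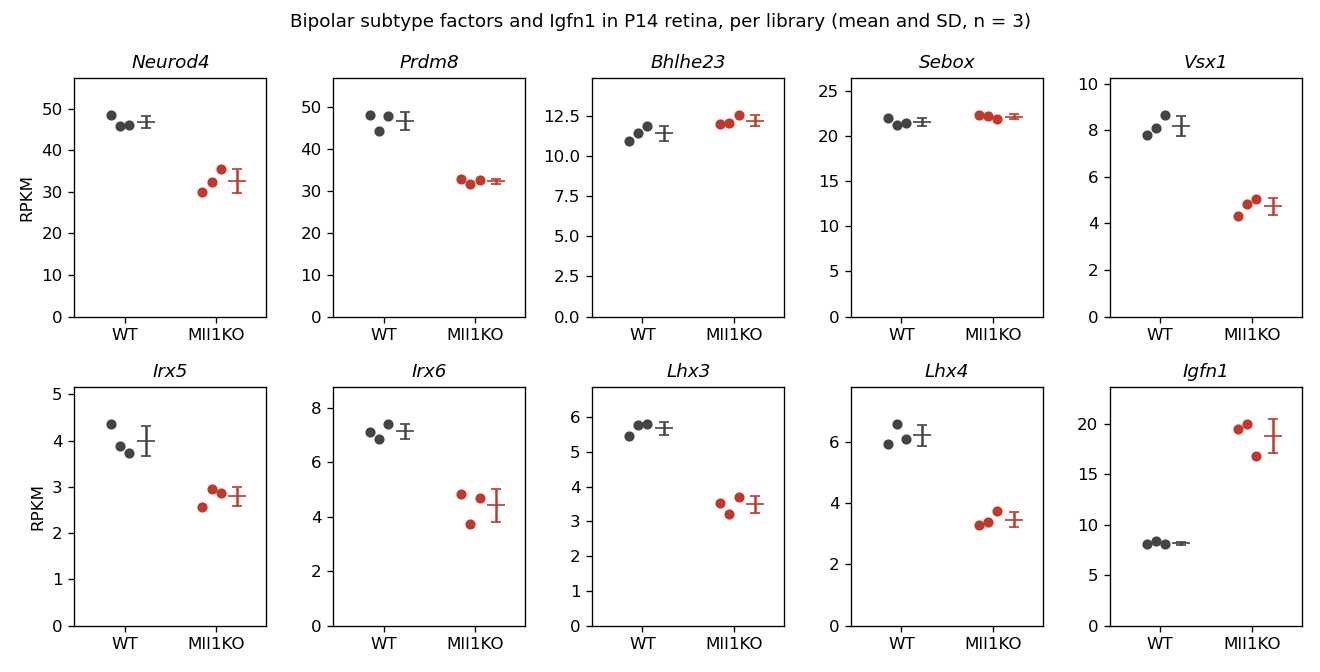
RPKM (vertical axes, from 0) of the 9 factors and *Igfn1* in each of 3 WT (grey) and 3 *Mll1KO* (red) libraries, where points are libraries and the bars beside them show mean and SD. *Vsx1* lies at 7.80 to 8.67 RPKM in WT and at 4.32 to 5.04 RPKM in *Mll1KO*, *Sebox* overlaps between the groups, and *Igfn1* lies at 16.8 to 20.0 RPKM in *Mll1KO*.

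Of the 9 factors, 7 had all *Mll1KO* values below all WT values, an order found in 3004 of 11339 genes (26.5%), and 1 had them all above, as 1653 genes had (14.6%). Since the values chose the genes, nothing is read from these counts. The 7 lower factors stood at 55.7% to 70.1% of WT. The median log2 fold change of the 9 factors was -0.52, against -0.03 over all genes. Rod scaling moved the median of all genes to -0.31 and that of the factors to -0.83. Among all genes, 48 had a lower log2 fold change than *Lhx4* and 286 a lower one than *Irx5*, while 13 had a higher one than *Igfn1*. The choice of genes by their values bears on these medians and ranks too, so nothing is read from them. On the scale of log2(RPKM + 1) the ranks also depend on the level of a gene.

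In WT, the RPKM levels of the members, which are per length and so can be set side by side, ran from *Neurod4* and *Prdm8* through *Sebox*, *Bhlhe23*, *Vsx1*, *Igfn1*, *Irx6*, *Lhx4* and *Lhx3* down to *Irx5*. The WT ranges of *Neurod4* (45.9 to 48.6) and *Prdm8* (44.2 to 48.1) overlapped, so that these levels did not differ beyond their spread on this scale. The WT ranges of *Vsx1* (7.80 to 8.67) and *Igfn1* (8.06 to 8.35) overlapped as well. All other neighbours were apart, the closest being *Lhx4* with 5.95 RPKM in its lowest sample and *Lhx3* with 5.81 RPKM in its highest. In *Mll1KO*, *Igfn1* stood between *Sebox* and *Bhlhe23*, and *Lhx3* stood above *Lhx4*. There the neighbours *Neurod4* and *Prdm8* overlapped, as did *Vsx1* (4.32 to 5.04) and *Irx6* (3.72 to 4.84), and *Lhx3* (3.23 to 3.71) and *Lhx4* (3.29 to 3.73). The level of *Lhx4* depends on the gene length behind its RPKM, 15197 bases, where the exons of the GENCODE M21 annotation sum to 5740 bases, so that its place in this order is less certain than its difference between groups. The same holds for *Prdm8*, with 3119 bases against 4855, and so for its place beside *Neurod4*, and for *Irx5*, with 2403 bases against 3127.

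Ratios of 2 genes within a library do not depend on how libraries are scaled. *Vsx1* over the rod bipolar factor *Bhlhe23* was 0.712, 0.707 and 0.729 in WT samples and 0.360, 0.401 and 0.401 in *Mll1KO* samples. *Lhx4* over *Bhlhe23* had a mean of 0.545 ± 0.0319 in WT and of 0.284 ± 0.0116 in *Mll1KO* (SD, n = 3), and *Irx6* over *Bhlhe23* of 0.624 ± 0.0253 and 0.361 ± 0.0488. In each of these the groups lay apart. As the members were chosen by their values, nothing is read from overlap or its absence in the ratios given here. *Neurod4* over *Otx2*, a factor of photoreceptors and bipolar cells, was 0.694 ± 0.0202 in WT and 0.620 ± 0.0367 in *Mll1KO* (SD, n = 3), also without overlap. *Irx6* over *Irx5* was 1.79 ± 0.182 in WT and 1.59 ± 0.315 in *Mll1KO* (SD, n = 3) with overlapping samples, and *Lhx3* over *Lhx4* was 0.915 ± 0.0398 in WT and 1.01 ± 0.0595 in *Mll1KO*, with 0.952 as the highest WT and 0.956 as the lowest *Mll1KO* value. *Sebox* over *Bhlhe23* overlapped too, at 1.89 ± 0.107 in WT and 1.82 ± 0.066 in *Mll1KO*. *Igfn1* over *Vsx1* went from 1.04, 1.03 and 0.930 in WT samples to 4.51, 4.13 and 3.34 in *Mll1KO* samples.

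The members lie on chromosomes 1, 2, 5, 8, 10 and 11 of GRCm38. *Irx5* (chr8:92357625-92376286) and *Irx6* (chr8:92674288-92680956) are neighbours on the plus strand. *Lhx4* (chr1:155698031-155751684) and *Igfn1* (chr1:135953578-136006342) share a chromosome and the minus strand and lay on opposite sides of 0 in log2 fold change. *Vsx1* (chr2:150680702-150689360), *Bhlhe23* (chr2:180774381-180776900, a single exon) and *Lhx3* (chr2:26200212-26208289) are on the minus strand of chromosome 2. *Neurod4* lies at chr10:130268152-130280240 on the minus strand, *Sebox* at chr11:78503447-78505081 and *Prdm8* at chr5:98167198-98188991, both on the plus strand. Of the exon bases of *Prdm8*, 29.1% are also exon of the antisense gene *A730035I17Rik*, and whether reads were counted by strand is not given in the sources used here, so that its value is uncertain to that extent. The same holds for smaller parts of *Lhx3* (6.2%, *Gm27196*) and *Irx6* (4.5%, *Gm45505*), and *Bhlhe23* shares 5.7% with *Gm14343* on its own strand. Of the 50-base stretches in the transcripts of *Irx5*, 0.6% also occur in another gene, chiefly *Irx2*, and none of those of *Neurod4*, *Sebox*, *Vsx1*, *Lhx4* or *Igfn1* do.

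Other genes were tested in the same libraries, in lists that were also chosen with earlier results known, so that their counts are no independent support for the members. Among other transcription factors of bipolar cells and their precursors, 22 of 24 were in the table, and 18 of them fell by limma and 4 did not pass, with a median log2 fold change of -0.34 against -0.03 over all genes, where 14.5% fell. Some of these factors, such as *Bhlhe22* and *Otx2*, are also of other retinal cells. In whole retina the falls in this list are therefore not assigned to bipolar cells. *Six3*, an eye field homeobox gene, had an RPKM of 38.4, 35.9 and 36.4 in WT samples and of 20.0, 19.0 and 21.2 in *Mll1KO* samples, and no value of one group reached the other. It fell the most in this list (log2 fold change -0.85, limma adjusted p = 8.14e-06). *Prdm1*, which holds back bipolar fate in photoreceptor precursors, fell from 8.39 ± 0.68 to 4.61 ± 0.303 RPKM (SD, n = 3; -0.74, limma adjusted p = 8.74e-05). *Bhlhe22*, a factor of OFF cone bipolar and amacrine cells, had a log2 fold change of -0.63 (limma adjusted p = 0.000246), and *Fezf2*, also of cone bipolar cells, of -0.62 (limma adjusted p = 0.000257). A pseudocount of 5 moved *Prdm1* to -0.48 and *Fezf2* to -0.41.

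Factors that bipolar cells share with other retinal neurons were among those that fell. The photoreceptor and bipolar factor *Otx2* had 71.2, 67.3 and 64.2 RPKM in WT and 49.5, 54.8 and 53.9 RPKM in *Mll1KO*. *Isl1*, a LIM homeobox gene of ON bipolar cells and of amacrine and ganglion cells, had 32.2, 33.7 and 33.1 RPKM in WT and 20.5, 23.8 and 23.1 RPKM in *Mll1KO*. For both genes the groups did not overlap, and by limma the log2 fold changes were -0.35 for *Otx2* (adjusted p = 0.00137) and -0.54 for *Isl1* (adjusted p = 0.000183). These calls held without each library in turn.

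Called markers of bipolar cells as a whole and of rod bipolar cells lay on both sides of 0, beside 14.5% of all genes that fell and 8.81% that rose. Of 9 listed genes of all bipolar cells, 1 fell, 3 rose and 5 did not pass, with a median log2 fold change of 0.05, whereas rod scaling gave 6 lower and 2 higher, with 83.8% of all genes lower. *Gabrr1*, a GABA receptor subunit, fell (-0.21, limma adjusted p = 0.013), and its relative *Gabrr2* rose (0.40, limma adjusted p = 0.000175), a call lost with rod scaling (0.10, adjusted p = 0.0936). The calcium channel gene *Cacna1s* rose from 1.95 ± 0.0824 to 3.91 ± 0.246 RPKM (SD, n = 3; 0.73, limma adjusted p = 3.76e-05; 0.36 with a pseudocount of 5), and the granin gene *Scg2* rose by 0.43 (limma adjusted p = 0.000115; 0.12 with rod scaling). *Cabp5*, a calcium-binding protein of rod and some cone bipolar cells, had overlapping groups (-0.09, limma adjusted p = 0.292) and passed the threshold with rod scaling (-0.40, adjusted p = 0.000281). Of 8 rod bipolar genes, 2 fell, 1 rose and 5 did not pass, with a median of -0.06, and under rod scaling 6 were lower, a share no higher than that of all genes. *Prkca*, the usual marker of rod bipolar cells, had 52.2, 51.5 and 49.9 RPKM in WT and 47.7, 48.2 and 47.2 RPKM in *Mll1KO*, apart by little and not past the threshold (-0.10, limma adjusted p = 0.079), which rod scaling moved past it (-0.41, adjusted p = 1.71e-05). *Car8* fell by 0.27 on the log2 scale (limma adjusted p = 0.00424), and the actin-binding gene *Ablim1* rose (0.20, limma adjusted p = 0.00704), which rod scaling turned to -0.10 (adjusted p = 0.0768).

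In the glutamate cascade of ON bipolar cells, 5 of 14 genes fell, 1 rose and 8 did not pass, with a median of -0.06, where 14.5% of all genes fell and 8.81% rose. Median-ratio factors gave 2 lower and 2 higher, beside 1126 lower and 1276 higher of all genes, and rod scaling 13 lower and 1 higher, beside 83.8% of all genes lower. The cation channel *Trpm1* had 62.7, 58.6 and 62.9 RPKM in WT samples and 40.4, 44.1 and 42.8 RPKM in *Mll1KO* samples, well apart (-0.52, limma adjusted p = 7.95e-05). The orphan receptor *Gpr179*, which anchors regulators of the cascade, fell by 0.29 (limma adjusted p = 0.00109), and *Rgs9bp*, also expressed in photoreceptors, rose by 0.45 (limma adjusted p = 8.29e-05; 0.14 with rod scaling). The receptor *Grm6* had overlapping groups and fell by 0.26 (limma adjusted p = 0.0284), a call lost without WT sample a (adjusted p = 0.0823), WT sample b (0.0972), *Mll1KO* sample b (0.0919) or *Mll1KO* sample c (0.102), and with median-ratio factors (0.0525). The synaptic gene *Lrrtm4* fell by 0.16 (limma adjusted p = 0.045), lost without any of the 6 libraries (adjusted p from 0.0619 to 0.134), with median-ratio factors (0.067), with upper-quartile factors (0.0647) and with a pseudocount of 5 (0.0665). The G protein gene *Gnao1* fell by 0.15 (limma adjusted p = 0.0473), lost without WT sample a (adjusted p = 0.113), WT sample b (0.0852), *Mll1KO* sample b (0.138) or *Mll1KO* sample c (0.131), and with median-ratio (0.144) or upper-quartile factors (0.115). Of these 14 genes, 6 were called with all libraries and 3 when WT sample a, WT sample b, *Mll1KO* sample b or *Mll1KO* sample c was left out.

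Effector genes of OFF and of ON cone bipolar cells gave different counts, a difference that was not tested. Of 13 OFF genes, 8 fell, 1 rose and 4 did not pass, with a median of -0.22, where 14.5% of all genes fell and 8.81% rose, and under rod scaling 12 were lower, beside 83.8% of all genes. *Neto1*, an auxiliary subunit of kainate receptors, had 6.20, 5.83 and 5.95 RPKM in WT samples and 2.85, 3.04 and 3.09 RPKM in *Mll1KO* samples, without overlap. Its log2 fold change was the lowest among these OFF genes (-0.81, limma adjusted p = 1.43e-05; -0.46 with a pseudocount of 5). The channel *Hcn4* fell by 0.67 (limma adjusted p = 6.54e-05), the kainate receptor *Grik1* by 0.31 (limma adjusted p = 0.0015) and the cadherin *Cdh8* by 0.28 (limma adjusted p = 0.0101). A pseudocount of 5 moved *Cdh8* to -0.15. The synaptotagmin *Syt2* rose by 0.18 (limma adjusted p = 0.0376), a call lost without any library other than *Mll1KO* sample b (adjusted p from 0.0738 to 0.115), and it stood at -0.08 with rod scaling. Without WT sample c, 5 OFF genes were called in place of 9.

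Of 14 ON cone bipolar genes, 2 fell, 3 rose and 9 did not pass, with a median of 0.02, where 14.5% of all genes fell and 8.81% rose. Rod scaling turned this split to 9 lower and 1 higher, a share of lower genes below the 83.8% of all genes. *Scgn*, a calcium-binding protein of many cone bipolar types, had 36.0, 36.9 and 35.5 RPKM in WT samples and 38.3, 36.1 and 37.5 RPKM in *Mll1KO* samples, with overlap (0.04, limma adjusted p = 0.471), and stood at -0.26 with rod scaling (adjusted p = 0.000724). *Nxph1* fell by 0.52 (limma adjusted p = 0.00024) and *Cpne9* by 0.46 (limma adjusted p = 0.00736), while the cadherin *Cdh9* rose by 0.41 (limma adjusted p = 0.00323; 0.18 with rod scaling). A pseudocount of 5 moved *Nxph1* to -0.21, *Cpne9* to -0.26 and *Cdh9* to 0.20, and limma-voom moved *Nxph1* to -0.84. The glycine transporter *Slc6a9*, also of amacrine cells, rose by 0.24 (limma adjusted p = 0.00396) but stood at -0.07 with rod scaling. *Tgfbr3* rose by 0.26 (limma adjusted p = 0.0228), lost without *Mll1KO* sample a (adjusted p = 0.0509), *Mll1KO* sample b (0.0714) or WT sample b (0.0727) and with rod scaling (0.255). Its log2 fold change was 0.10 with a pseudocount of 5 and 0.46 with limma-voom. Over all 80 genes of the 6 bipolar lists, 36 fell and 9 rose, with a median of -0.12, and with rod scaling 68 were lower and 4 higher, a share of lower genes close to the 83.8% of all genes.

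**Figure D2:**
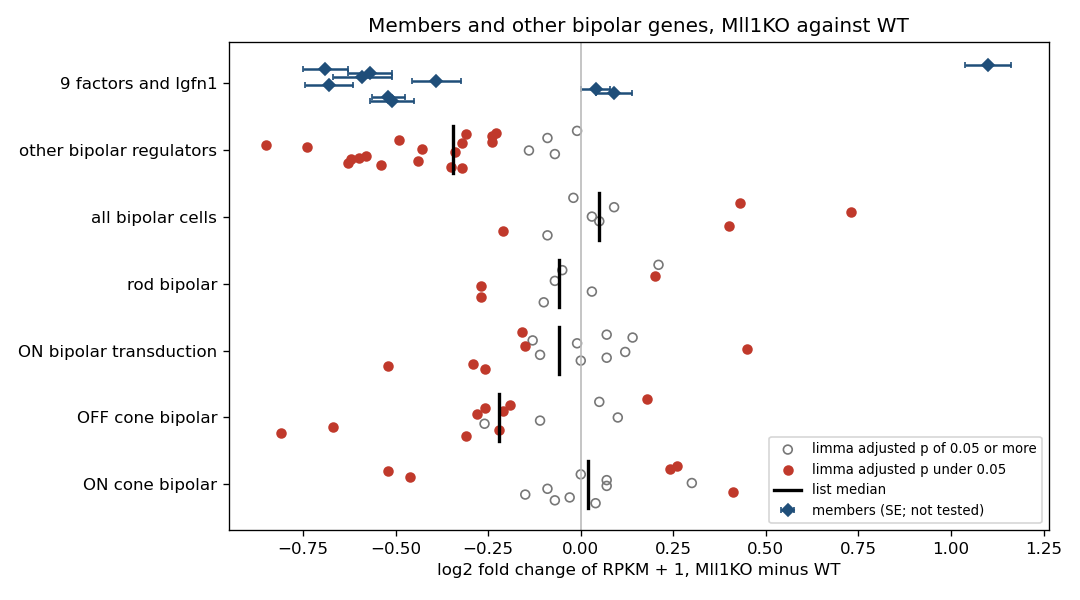
Log2 fold change of RPKM + 1, *Mll1KO* minus WT (horizontal axis), of the 9 factors and *Igfn1* (diamonds with standard error, not tested) and of 80 other genes in 6 bipolar lists, with filled points for a limma adjusted p under 0.05 and black bars for list medians. Among the other regulators 18 of 22 genes fell, and list medians lay between -0.34 and 0.05. Of the members and the bipolar list genes named in the text, *Bhlhe23*, *Sebox*, *Scgn*, *Ablim1*, *Syt2* and *Slc6a9* have signs that turn with rod scaling. Some list genes that are not named turn as well.

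Markers of other retinal cells moved with the same contrast, beside 8.81% of all genes higher and 14.5% lower. The 10 rod genes summed to 15370, 14440 and 14880 RPKM in WT samples and to 18580, 18790 and 18220 RPKM in *Mll1KO* samples, with 7 higher by limma, 1 lower (*Nr2e3*, -0.36, adjusted p = 0.00946) and 2 not past the threshold. *Pde6a*, a subunit of the rod phosphodiesterase, rose the most (0.48, limma adjusted p = 0.000101). The 8 cone genes summed to 342.9, 357.9 and 373.7 RPKM in WT and to 411.7, 429.2 and 448.5 RPKM in *Mll1KO*, with 6 higher and 1 lower, among them *Arr3* (0.66), *Opn1mw* (0.56), the most abundant over all 6 libraries, and *Opn1sw* (-0.44), whose WT mean of 94.4 RPKM was above the 90.2 RPKM of *Opn1mw*. The 8 Müller glia genes summed to 1267, 1259 and 1389 RPKM in WT and to 1613, 1684 and 1649 RPKM in *Mll1KO*, with 4 higher and 1 lower, among them *Clu* (0.68), the most abundant *Glul* (0.47) and *Vim* (-0.47). In all 3 lists the RPKM sums of the groups lay apart, higher in *Mll1KO*, and median-ratio and upper-quartile factors gave these counts too. Under rod scaling 3 rod genes were lower and 1 higher, 2 cone genes lower and 3 higher, and 4 Müller glia genes lower and 2 higher, beside 83.8% of all genes lower.

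The other lists of the inner retina were lower or mixed, beside 14.5% of all genes lower and 8.81% higher. The 8 amacrine genes summed to 375.0, 361.3 and 376.2 RPKM in WT and to 354.2, 355.1 and 397.4 RPKM in *Mll1KO*, overlapping, with 4 lower and 1 higher by limma, among them *Gad2* (-0.49) and *Gad1* (0.30). The 7 listed horizontal cell genes summed to 140.1, 144.5 and 140.1 RPKM in WT and to 97.4, 100.3 and 104.3 RPKM in *Mll1KO*, with 6 lower by limma, from *Slc4a3* (-0.70) over the most abundant *Sept4* (-0.40) to *Calb1* (-0.13, not past the threshold). The 8 ganglion cell genes summed to 528.8, 489.6 and 516.0 RPKM in WT and to 414.0, 367.2 and 337.9 RPKM in *Mll1KO*, with 7 lower by limma, from *Pou4f2* (-0.89) over the most abundant *Sncg* (-0.55) to *Slc17a6* (-0.15, not past the threshold). These sums lay apart for horizontal and ganglion cells. Median-ratio and upper-quartile factors gave 4 lower and 3 higher amacrine genes, 6 lower horizontal cell genes and 6 lower ganglion cell genes. Rod scaling gave 6, 7 and 8 lower genes in these lists, beside 83.8% of all genes. Of 8 genes of the pigment epithelium, 3 were listed and none passed by limma (1 at an unadjusted p under 0.05, none by limma-voom), and their sums of 149.2, 94.5 and 221.2 RPKM in WT and 79.3, 163.3 and 81.5 RPKM in *Mll1KO* overlapped, with *Ttr* (-0.28) the most abundant, *Pmel* (-1.48) the lowest and *Rgr* (0.30) the highest in log2 fold change. With rod scaling 2 of these 3 genes were lower, beside 83.8% of all genes. Of 7 lens genes *Cryaa* was listed, at 6.54, 6.61 and 7.51 RPKM in WT and 32.1, 12.4 and 7.28 RPKM in *Mll1KO*, with overlap (limma adjusted p = 0.095). The part of any of these cell types in the values of the bipolar factors was not tested.

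The genes outside the list whose profile over the 6 libraries was most like the mean profile of the 9 factors were *Afap1*, *Sept4*, *A730046J19Rik*, *Trim67*, *Onecut2* and *Dpysl5*. Likeness was the root mean square difference of log2(RPKM + 1), each gene centred on its mean, and it ran from 0.0237 for *Afap1* to 0.0291 for *Dpysl5*. The mean profile takes in *Bhlhe23* and *Sebox*, which did not fall. Likeness on this scale also depends on level, as *Sept4* stood at 75.5% of WT and the weakly expressed *Onecut2* at 57.9%. *Afap1* had 6.67, 6.92 and 6.79 RPKM in WT samples and 4.77, 4.66 and 4.89 RPKM in *Mll1KO* samples. *Onecut2*, a factor of horizontal cells, had 1.25, 1.33 and 1.31 RPKM in WT and 0.726, 0.737 and 0.794 RPKM in *Mll1KO*.

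MLL1 methylates histone H3 at promoters, many of which are rich in CG dinucleotides, so the sequence upstream of the members is shown with its CG in capitals. Upstream windows of 250 bases from RefSeq (build GRCm38.p6) matched 8 of 10 members, without *Irx5* and *Irx6*, with a pair of start sites each for *Neurod4* and *Lhx3*. They held 14 CG in *Lhx4*, 13 in *Bhlhe23*, 11 in *Prdm8*, 11 and 22 in *Lhx3*, 2 and 7 in *Neurod4*, 3 in *Vsx1*, 3 in *Sebox* and 1 in *Igfn1*, where the median of 32851 promoters was 6. By M21, 223 bases of the *Vsx1* window, 66 of the *Sebox* window and 84 of the second *Neurod4* window are exon of the gene itself. All 250 bases of the first *Lhx3* window are exon of *Lhx3* or *Gm27196*, 124 of the second are exon of *Gm27196*, and the *Prdm8* window is intronic in *Prdm8*, so that not all of these counts are of sequence upstream of the gene. Each window was searched on both strands for TAATCC, a core motif of OTX2 and CRX, for TAATTA, a core motif of LIM and paired-type homeodomains, and for the E-box CACGTG, of which TAATCC and TAATTA share their TAAT. None of these letters was in any window of the members, against 6.3% of all promoters for TAATCC, 4.8% for TAATTA and 6.0% for CACGTG. Shown are the factor with the lowest share of WT, a factor of the wider bipolar group, the rod bipolar factor and *Igfn1*, all on the minus strand. The *Lhx4* window (chr1:155742028-155742277) is intronic in *Lhx4* by M21. The *Neurod4* window of its first start site (chr10:130280255-130280504), the *Bhlhe23* window (chr2:180776901-180777150) and the *Igfn1* window (chr1:136006343-136006592) lie in no annotated gene.
*Lhx4*: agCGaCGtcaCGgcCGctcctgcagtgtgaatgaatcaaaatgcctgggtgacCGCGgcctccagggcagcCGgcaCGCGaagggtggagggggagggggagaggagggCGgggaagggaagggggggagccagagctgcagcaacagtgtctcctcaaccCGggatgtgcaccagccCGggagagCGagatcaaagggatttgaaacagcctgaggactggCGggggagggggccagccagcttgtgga
*Neurod4*: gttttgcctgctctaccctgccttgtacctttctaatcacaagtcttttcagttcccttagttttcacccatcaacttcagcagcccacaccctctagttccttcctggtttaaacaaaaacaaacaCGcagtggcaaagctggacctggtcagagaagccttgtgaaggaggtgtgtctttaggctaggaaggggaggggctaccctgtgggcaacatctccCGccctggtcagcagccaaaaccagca
*Bhlhe23*: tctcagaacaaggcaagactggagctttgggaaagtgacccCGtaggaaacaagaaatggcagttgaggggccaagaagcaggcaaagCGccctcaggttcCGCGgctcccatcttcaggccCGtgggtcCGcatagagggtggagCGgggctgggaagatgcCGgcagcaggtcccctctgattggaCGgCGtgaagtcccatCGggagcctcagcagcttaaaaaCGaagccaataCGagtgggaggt
*Igfn1*: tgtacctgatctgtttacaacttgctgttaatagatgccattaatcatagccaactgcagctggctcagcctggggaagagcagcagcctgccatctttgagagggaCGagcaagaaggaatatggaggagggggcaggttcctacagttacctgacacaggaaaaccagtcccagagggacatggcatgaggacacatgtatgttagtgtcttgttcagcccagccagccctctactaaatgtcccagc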

How the data were processed

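Retinal RNA of 3 *Mll1KO* and 3 WT samples at P14 was sequenced. The authors aligned single-end reads of 50 bases with STAR 2.0.4b to a mouse build that the labels give as mm10, counted reads by gene with featureCounts 1.45 and kept genes whose CPM was over 5 in 5 or more samples. The deposited values are RPKM, which the authors derived from their counts with the length of each gene and the library total. The log2 columns of the deposited table, a fold change and a mean CPM, come from the authors' comparison with edgeR, for which the labels and the study's methods name different versions, and were not used. The p-value and FDR of that comparison by the authors, also deposited, were not used either.

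The members and gene lists were chosen with earlier results of these data known. The table held 11404 lines for 11339 genes, as 59 gene IDs stood in more than 1 line with equal values, and 18 symbols turned into dates were restored from the IDs. Of the IDs, 11323 matched GENCODE M21 (GRCm38), which gave places and overlaps. Gene lengths and library totals were searched so that every gene gave whole reads, which 100% of genes did within 0.02 reads, and the length was the M21 exon length in 53.4% of matched genes. Intervals from reads cover counting error only.

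Since RPKM is not a count, limma 3.58.1 in R 4.3.3, with a variance trend, replaced edgeR on log2(RPKM + 1), p-values being adjusted over all 11339 genes (Benjamini-Hochberg; threshold 0.05). Genes named were all members and *Kmt2a*; in each bipolar list up to 4 called falls and 4 called rises with the largest change and no overlap, plus *Otx2*, *Isl1*, *Cabp5*, *Prkca*, *Grm6*, *Trpm1*, *Grik1* and *Scgn*; in other lists the highest, lowest and most abundant gene; and the 6 most alike genes. A few genes the rule takes are not reported here. The fit was tested on simulated data. Alternatives were other pseudocounts, a filter on RPKM, limma-voom on the recovered reads, other scalings (upper-quartile factors, median-ratio factors, an equal sum over 10 rod genes), a replicate block and leaving out each library. Python 3.11.15 with pandas 2.3.3, numpy 2.4.6 and matplotlib 3.10.9 was used for the rest.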

Additional observations from a re-analysis of the deposited data

How the results depend on the processing

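The log2 fold changes of the 7 lower factors, of *Igfn1* and of *Kmt2a* kept their sign under all 14 alternatives, and *Kmt2a* stayed past the threshold (limma adjusted p from 2.36e-07 to 0.000427). Rod scaling gave 9710 changed genes, 2.2% of them higher against 37.8% before, moved the median of all genes from -0.03 to -0.31 and that of the 9 factors to -0.83, and called 72 of 80 bipolar list genes, with 8 for all bipolar cells, 6 for rod bipolar cells, 14 for ON transduction and 10 for ON cone bipolar cells. Among the members and the named bipolar list genes, it also turned *Bhlhe23* to -0.20, *Sebox* to -0.26, *Scgn* to -0.26, *Ablim1* to -0.10, *Syt2* to -0.08 and *Slc6a9* to -0.07. Some bipolar list genes that are not named turned as well, such as in the ON transduction list. The rod genes summed higher in *Mll1KO*, so this scaling lowers every *Mll1KO* value by construction. Upper-quartile factors gave 2440 changed genes with 51.2% higher, and median-ratio factors 2402 with 53.1% higher. A pseudocount of 5 moved the median of the factors to -0.37, since it shrinks the changes of weakly expressed genes.

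Leaving out each library in turn gave 1704 to 2536 changed genes (1704 without WT sample b, 1757 without *Mll1KO* sample c), 36 to 40 called bipolar list genes and a median of the factors between -0.57 and -0.50. By list, it gave 16 to 18 called other regulators, 4 genes of all bipolar cells, 3 to 4 rod bipolar, 3 to 6 ON transduction, 5 to 8 OFF cone and 4 to 5 ON cone bipolar genes, and *Kmt2a* between -0.72 and -0.65. The replicate letters gave no sign of pairing the samples. Deviations of same-letter samples from their group means correlated across genes at -0.0395, -0.19 and -0.00714 for a, b and c. With 3 samples per group, whose deviations cancel within the group, these correlations cannot exclude a pairing. With the letter as a replicate block, 2242 genes were changed, 41 of the bipolar list genes were called and the log2 fold changes stayed as they were, at -0.69 for *Kmt2a* and -0.52 for the factors. *Lrrtm4* (adjusted p = 0.0692) and *Syt2* (0.067) were then not past the threshold, and in the deviations from group means no sample correlated best with its own letter. *Lrrtm4* has no value under the filter on a mean RPKM of at least 1. Depth limits *Irx5* among the members, with 124 reads in its lowest library, and several listed genes had fewer, such as *Lrrtm4* with 98 and *Nxph1* with 108.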
